A study of Equus caballus with 15 samples.

Results

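The heme and iron handling genes of cultured equine macrophages described here were chosen by symbol, as HMOX1, BLVRA, BLVRB, FTH1, FTL, SLC40A1, TFRC, SLC11A1, SLC11A2 and SLC48A1. All 10 were found among the 16932 genes of the deposited table, and 9 of them were among the 11628 genes that averaged 1 CPM or more and entered the test, where CPM is the read count of a gene scaled to the library's total. SLC40A1, at a mean of 0.766 CPM, did not. Polyadenylated RNA was sequenced from monocyte-derived macrophages in 5 conditions with 3 libraries each, and the study asked how orthobiologic therapies (OTs), blood or marrow products injected into joints, change the transcriptome of macrophages activated by the inflammatory cytokine IL-1ß.

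All cultures came from blood mononuclear cells of 2 horses and were grown for 5 days with human M-CSF at 30 ng/mL, the growth factor that drives monocytes towards macrophages. The study does not say which of these horses each library came from or whether their cells were pooled. The untreated group received neither IL-1ß nor an OT. The IL-1ß group received 10 ng/mL of IL-1ß alone. The MSC-CM, PRP lysate and ACS groups received the same IL-1ß together with an OT at 25% of the culture medium for 24 h, namely conditioned medium of bone marrow mesenchymal stromal cells (MSC-CM), lysed platelet rich plasma (PRP lysate) or autologous conditioned serum (ACS). Each OT was prepared from 3 other horses, so ACS was not autologous to the macrophages here. Libraries of these groups differ by OT donor, while the study describes the untreated and IL-1ß libraries as technical replicates, so p-values measure only the spread among these libraries. After 24 h the cells were washed, and the sources used here differ on whether RNA was taken then or after a further 24 h.

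Macrophages take up old red cells and return their iron to the body. Heme leaves the phagosome through the transporter HRG1, the product of SLC48A1, and is opened by heme oxygenase 1 (HMOX1) to biliverdin, carbon monoxide and iron, after which the biliverdin reductases (BLVRA, BLVRB) form bilirubin. Iron is stored in a shell of ferritin heavy and light chains (FTH1, FTL), enters through the transferrin receptor (TFRC) and the divalent metal transporters DMT1 (SLC11A2) and NRAMP1 (SLC11A1), and leaves through ferroportin (SLC40A1).

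Libraries held between 28410742 and 47894073 counted reads. The macrophage markers CD68 (1340 to 2157 CPM) and MRC1 (515 to 3394 CPM) were high in every library, whereas CD14 (1.38 to 4.32 CPM) and ITGAM (1.10 to 3.47 CPM) were low in all. The T cell genes CD3E, CD3D, CD3G and CD2 were present throughout, with a summed level of 404 to 1146 CPM. In these bulk samples, fewer cells of a type and less RNA per cell cannot be told apart. IL-1ß replicate 3 and PRP lysate replicate 1 stood apart from the other libraries on the first principal component, which held 55.4% of the variance. They also had the highest summed T cell markers, 1107 and 1146 CPM, and the lowest summed level of the 9 macrophage markers, 3434 and 2274 CPM. Most of the latter sum was MRC1 and CD68, and MRC1 was at 1152 and 515 CPM there. CD14, in contrast, was highest of all libraries in IL-1ß replicate 3 (4.32 CPM). Of the 10 genes, 5 reached their highest level of all 15 libraries in IL-1ß replicate 3 and 3 their lowest. Results are therefore also given without these libraries where they rest on them, a choice made after the data were seen. Of 11 erythroid markers, 5 were in the table, and their summed level was 2.10 to 6.64 CPM.

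**Figure D1:**
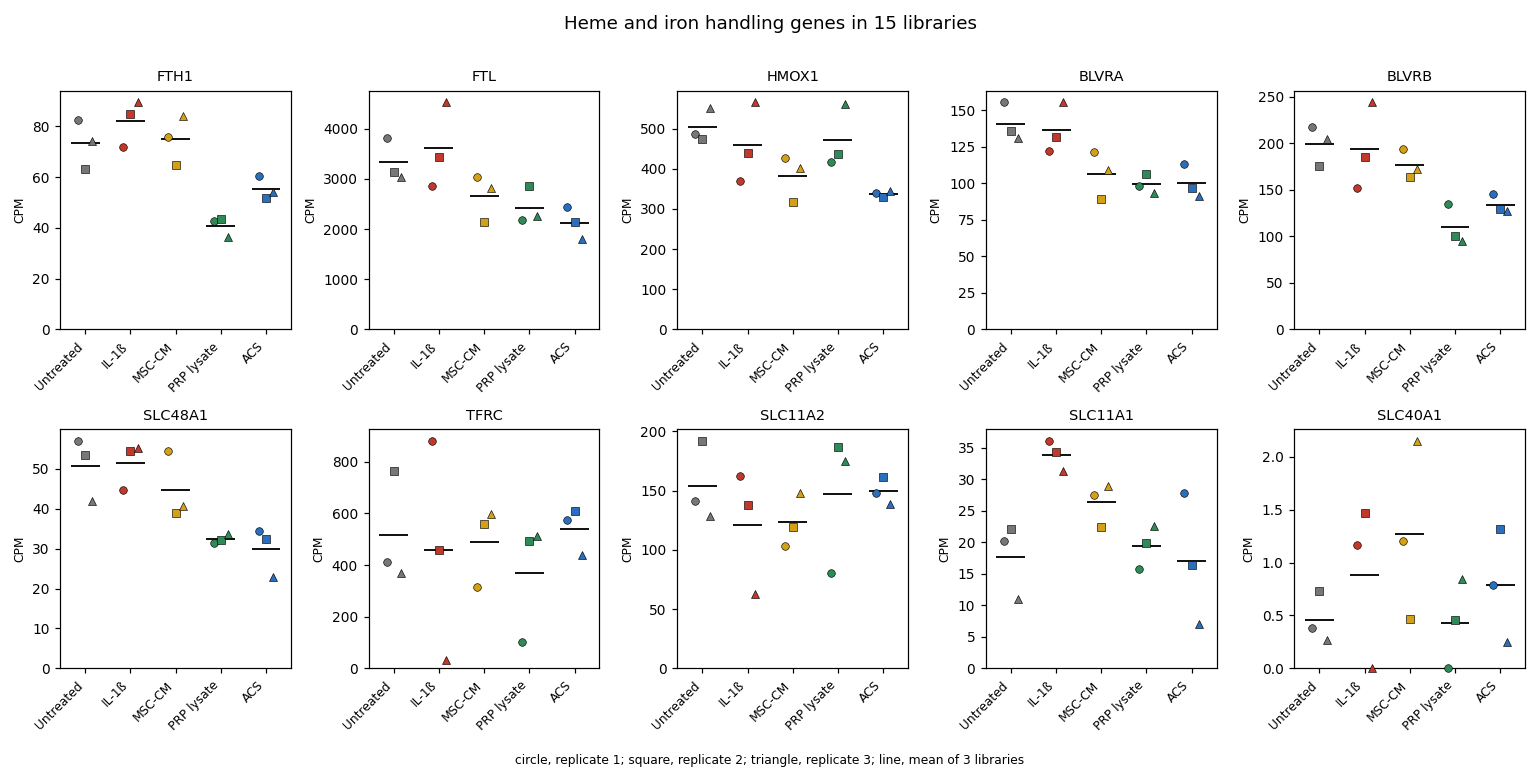
Level in CPM of each of the 10 genes (vertical axis, from 0) in the 15 libraries of the 5 conditions (horizontal axis). Points are libraries and lines are means of 3. FTH1 in the 3 PRP lysate libraries (36.3 to 43.4 CPM) lies below every other library, and TFRC in IL-1ß replicate 3 (33.2 CPM) lies far below the rest of its group.

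FTH1 (ENSECAG00000008683; EquCab3.0 chromosome 12, 25512964 to 25519782), the ferritin chain that oxidizes iron for storage, was measured at 82.5, 63.4 and 74.4 CPM in the untreated libraries and at 71.8, 84.8 and 89.6 CPM with IL-1ß. It stood at 75.9, 64.7 and 83.9 CPM with MSC-CM, at 42.8, 43.4 and 36.3 CPM with PRP lysate and at 60.4, 51.9 and 54.1 CPM with ACS. The PRP lysate libraries lay below all others, the ACS libraries lay between them and the rest, and the other 3 groups overlapped. FTH1 fell with PRP lysate against IL-1ß, by a log2 fold change of -0.99 (SE 0.148, 95% confidence interval -1.31 to -0.67, adjusted p = 0.00161, limma with Benjamini-Hochberg adjustment over all genes tested), from a mean of 82.1 ± 9.23 to 40.8 ± 3.95 CPM (SD, n = 3). It also fell against MSC-CM (log2 fold change -0.86, adjusted p = 0.00493) and against the untreated group (-0.83, adjusted p = 0.00937), the latter not without untreated replicate 1 (-0.74, adjusted p = 0.0675). Deviations of MSC-CM and PRP lysate libraries from their group means correlated at 0.255 to 0.635 for the same number and up to 0.470 for other numbers. A pairing by number is therefore not settled. With the replicate number as a block, the call against MSC-CM was lost over 4 groups (adjusted p = 0.0553). It was kept over the 6 MSC-CM and PRP lysate libraries alone (adjusted p = 0.0209).

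The decline of FTH1 against IL-1ß just missed the 2-fold threshold of the study in limma and passed it on the recovered reads, with a log2 fold change of -1.12 in DESeq2 (adjusted p = 1.22e-05) and -1.10 in edgeR (adjusted p = 0.00543). Leaving out any of the 6 libraries in turn kept adjusted p between 0.00233 and 0.0106, and without both libraries that stood apart the log2 fold change was -0.96 (adjusted p = 0.00268). A fit on the 6 libraries of these 2 groups alone gave adjusted p = 0.124. With ACS the FTH1 value against IL-1ß was a log2 fold change of -0.55 (adjusted p = 0.0621), which passed in 2 of 14 alternatives, without IL-1ß replicate 1 (-0.65, adjusted p = 0.0335) and in DESeq2 (-0.71, adjusted p = 0.0197). PRP lysate against ACS gave -0.44 (95% confidence interval -0.76 to -0.11, adjusted p = 0.651), so that these products were not shown to differ from each other.

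FTL (ENSECAG00000029371; chromosome 10, 19192417 to 19193629), the light chain that supports the growth of the iron core, was at 3821, 3142 and 3037 CPM in the untreated libraries, at 2863, 3428 and 4533 CPM with IL-1ß and at 3040, 2136 and 2815 CPM with MSC-CM. Its level was 2180, 2851 and 2251 CPM with PRP lysate and 2434, 2140 and 1802 CPM with ACS. Both of these groups lay below the IL-1ß libraries, and the highest library with PRP lysate (2851 CPM) was just under the lowest with IL-1ß (2863 CPM). No comparison passed the test. The log2 fold change against IL-1ß was -0.56 with PRP lysate (adjusted p = 0.137) and -0.75 with ACS (adjusted p = 0.0549), and the latter passed without IL-1ß replicate 1 (-0.90, adjusted p = 0.0250) and in DESeq2 (-0.93, adjusted p = 0.0166). Without IL-1ß replicate 3, the library with the highest FTL, these values were -0.38 (adjusted p = 0.312) and -0.57 (adjusted p = 0.169), and without PRP lysate replicate 1 as well the first was -0.31 (adjusted p = 0.393).

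Within a library the ratio of FTL to FTH1 is free of the library's scaling. This ratio, chosen after the levels were seen, was 51.0, 65.7 and 62.1 with PRP lysate, and between 33.0 and 50.6 in the other 12 libraries. The group with PRP lysate therefore lay above all others, with its lowest library close to IL-1ß replicate 3, at 50.6. Its mean was 59.6 ± 7.66, against 43.6 ± 6.02 with IL-1ß, 35.5 ± 3.92 with MSC-CM, 38.3 ± 4.34 with ACS and 45.6 ± 4.43 in the untreated libraries (SD, n = 3). Each of the 4 comparisons gave p = 0.1 in a two-sided exact permutation test, the smallest that 3 libraries against 3 allow, and 12 such tests were run over 3 ratios. Ferritin genes have near-identical processed copies in mammalian genomes, and how reads shared with such copies were counted is not given in the sources used here, so the levels of both chains are uncertain to that extent.

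**Figure D2:**
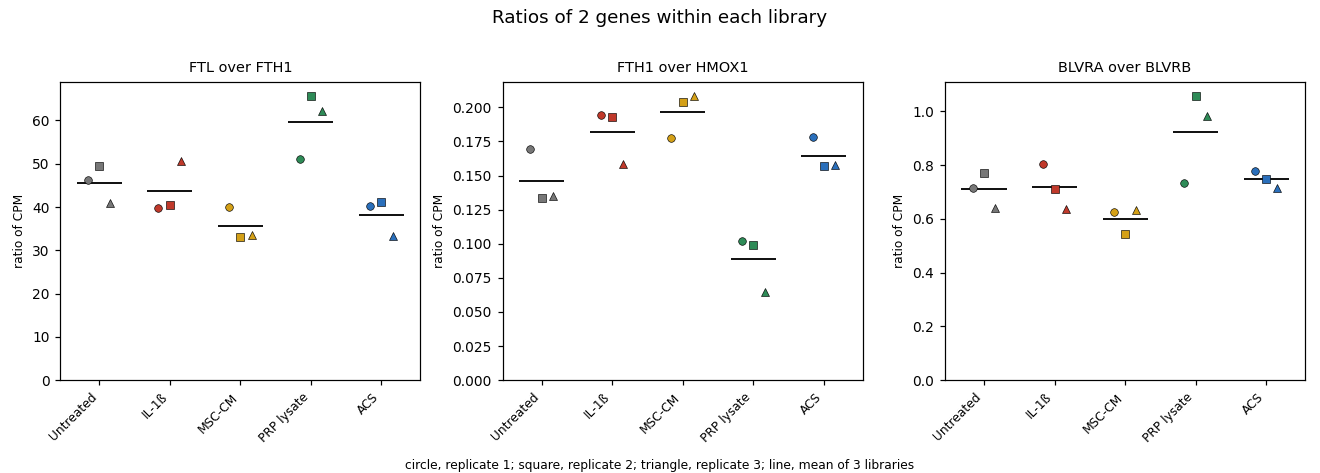
Ratio of the CPM of 2 genes within each library (vertical axis, from 0) in the 5 conditions (horizontal axis). Points are libraries and lines are means of 3. The PRP lysate libraries have the highest FTL to FTH1 ratios (51.0 to 65.7) and the lowest FTH1 to HMOX1 ratios (0.0646 to 0.102).

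HMOX1 (ENSECAG00000001129; chromosome 28, 34012984 to 34021888), the inducible enzyme that opens the heme ring, did not follow FTH1 with PRP lysate. It was at 488, 473 and 551 CPM in the untreated libraries, at 369, 440 and 567 CPM with IL-1ß and at 427, 317 and 403 CPM with MSC-CM. With PRP lysate it was at 418, 438 and 562 CPM and with ACS at 339, 331 and 344 CPM. The PRP lysate range was covered by the IL-1ß range, whereas all ACS libraries lay below both of these groups and the untreated libraries. The log2 difference of PRP lysate from IL-1ß was 0.05 (95% confidence interval -0.31 to 0.42, adjusted p = 0.893) and its sign turned in 6 of 15 alternatives, among them edgeR (-0.07) and DESeq2 (-0.09). That of ACS was -0.42 from IL-1ß (adjusted p = 0.199), or -0.25 without IL-1ß replicate 3 (adjusted p = 0.594), and -0.57 from the untreated group (adjusted p = 0.253), and the latter passed in 2 of 14 alternatives, without the pair of libraries that stood apart (adjusted p = 0.0334) and in a fit of these 2 groups alone (adjusted p = 0.0171).

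Set against HMOX1 in the same library, FTH1 was lower with PRP lysate than in any other condition. The FTH1 to HMOX1 ratio, also chosen after the levels were seen, was 0.102, 0.0992 and 0.0646 with PRP lysate and from 0.134 to 0.208 in the other 12 libraries, with p = 0.1 in each of the 4 two-sided exact permutation tests. The ACS ratios of FTH1 to HMOX1 were 0.157 to 0.178, of which replicate 1 lay within the range of the IL-1ß libraries (0.158 to 0.195) and the other two just below it. The ratio of BLVRA to BLVRB, tested in the same way, was 0.732 to 1.06 with PRP lysate and overlapped all groups other than MSC-CM (exact permutation p = 0.1 against MSC-CM, 0.2 against IL-1ß and the untreated group and 0.3 against ACS).

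Among the biliverdin reductases, BLVRB (ENSECAG00000000697; chromosome 10, 10992495 to 11003720), which also reduces flavins, was at 217, 175 and 204 CPM in the untreated libraries and at 151, 185 and 244 CPM with IL-1ß. It was at 194, 164 and 172 CPM with MSC-CM, at 134, 101 and 95.3 CPM with PRP lysate and at 146, 129 and 128 CPM with ACS. All PRP lysate and ACS libraries lay below all libraries of the other 3 groups, and the ranges of these 2 groups overlapped each other. BLVRB fell with PRP lysate against IL-1ß (log2 fold change -0.80, SE 0.178, adjusted p = 0.0197), against MSC-CM (-0.69, adjusted p = 0.0464) and against the untreated group (-0.86, adjusted p = 0.0209).

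These BLVRB calls were less firm than that of FTH1. Against IL-1ß the call was lost without IL-1ß replicate 2 (adjusted p = 0.0584), PRP lysate replicate 2 (adjusted p = 0.0798) or PRP lysate replicate 3 (adjusted p = 0.0920). It was kept without the pair of libraries that stood apart, with a log2 fold change of -0.77 (adjusted p = 0.00375), and in 9 of 15 alternatives in all. Against MSC-CM it was lost without any single library other than PRP lysate replicate 1 (adjusted p from 0.0916 to 0.179), and also in edgeR (adjusted p = 0.241), in DESeq2 (adjusted p = 0.222), with RLE or TMM scaling, with no filter and in a fit of these 2 groups alone, so that it passed in 4 of 16 alternatives. With the replicate number as a block it was lost over 4 groups (adjusted p = 0.193) and kept over these 6 libraries alone (adjusted p = 0.0238). Against the untreated group it was lost without untreated replicate 1 (adjusted p = 0.120), untreated replicate 3 (adjusted p = 0.0623), PRP lysate replicate 2 (adjusted p = 0.0602) or PRP lysate replicate 3 (adjusted p = 0.0983), and it passed in 6 of 15 alternatives.

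BLVRA (ENSECAG00000011650; chromosome 4, 14567863 to 14663878), the main biliverdin reductase of adult tissue, was at 155, 135 and 131 CPM in the untreated libraries and at 122, 131 and 156 CPM with IL-1ß. It was at 121, 89.4 and 109 CPM with MSC-CM, at 98.3, 106 and 93.6 CPM with PRP lysate and at 113, 96.6 and 91.0 CPM with ACS. The libraries with any of the 3 OTs lay below all untreated and all IL-1ß libraries. No comparison passed the test, with log2 fold changes against IL-1ß of -0.36 for MSC-CM (adjusted p = 0.705), -0.45 for PRP lysate (adjusted p = 0.110) and -0.44 for ACS (adjusted p = 0.127). That for MSC-CM was -0.24 without MSC-CM replicate 2 (adjusted p = 0.985) and -0.55 in DESeq2 (adjusted p = 0.878).

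SLC48A1 (ENSECAG00000031669; chromosome 6, 66323760 to 66332850), the heme exporter of the phagosome, was at 57.1, 53.6 and 41.9 CPM in the untreated libraries, at 44.7, 54.5 and 55.2 CPM with IL-1ß and at 54.5, 38.9 and 40.8 CPM with MSC-CM. With PRP lysate it was at 31.5, 32.1 and 33.8 CPM and with ACS at 34.4, 32.3 and 22.9 CPM. These groups overlapped each other and lay below all libraries of the other 3. SLC48A1 fell with ACS against IL-1ß (log2 fold change -0.78, SE 0.187, adjusted p = 0.0378), and this call was kept without IL-1ß replicate 1 (adjusted p = 0.0282) and lost without IL-1ß replicate 2 (adjusted p = 0.113), IL-1ß replicate 3 (adjusted p = 0.0945), or ACS replicate 1, 2 or 3 (adjusted p = 0.0570, 0.101 and 0.178), passing in 7 of 14 alternatives. With PRP lysate the log2 difference of -0.64 from IL-1ß did not pass in limma (adjusted p = 0.0718) and passed in DESeq2 alone of 15 alternatives (-0.78, adjusted p = 0.0290). PRP lysate against ACS gave 0.13 (95% confidence interval -0.27 to 0.54), so that a difference between these products in the level of SLC48A1 was not detected.

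**Figure D3:**
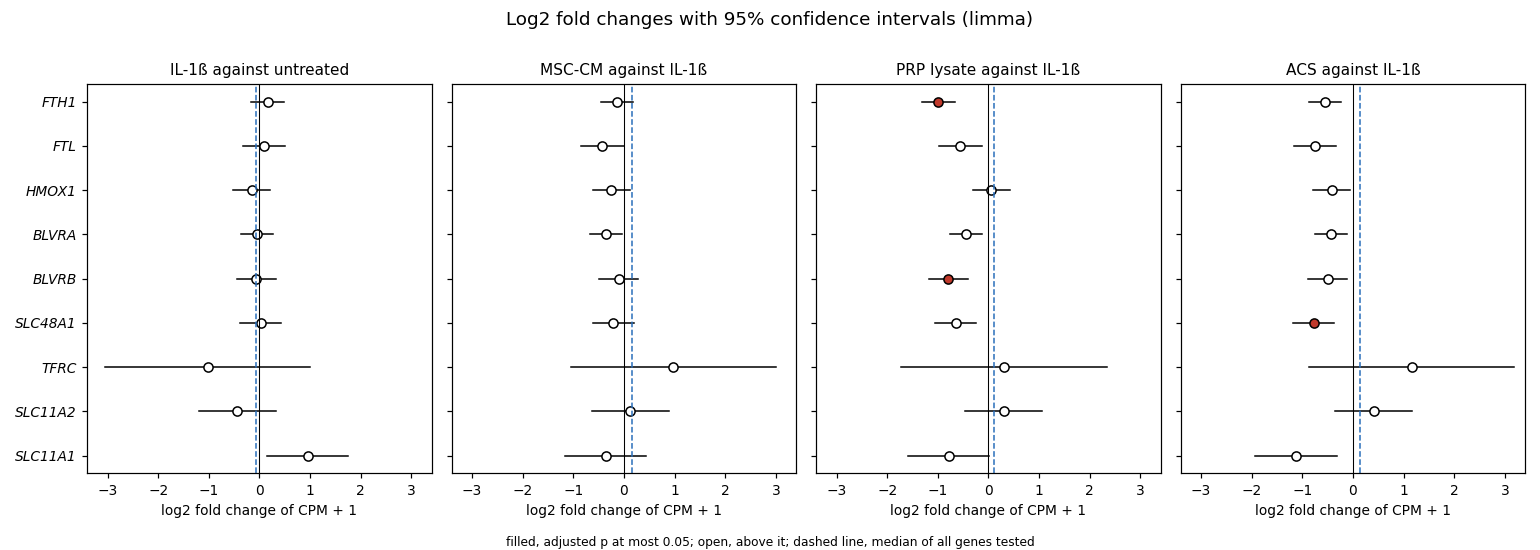
Log2 fold change of CPM + 1 (horizontal axis) with its 95% confidence interval for the 9 genes tested, in 4 comparisons, by limma on 15 libraries. Filled points have an adjusted p of at most 0.05, and the dashed line is the median of all genes tested. FTH1 and BLVRB pass with PRP lysate, SLC48A1 passes with ACS, and the intervals of TFRC are the widest.

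Of the iron importers, TFRC (ENSECAG00000024267; chromosome 19, 36095841 to 36114254), which takes up iron bound to transferrin, was at 410, 765 and 370 CPM in the untreated libraries and at 882, 459 and 33.2 CPM with IL-1ß. It was at 316, 558 and 597 CPM with MSC-CM, at 102, 494 and 514 CPM with PRP lysate and at 574, 608 and 441 CPM with ACS. Its highest and its lowest library both belonged to the IL-1ß group, and all groups overlapped. The log2 difference of IL-1ß from the untreated group was -1.03 (adjusted p = 0.628) and turned to 0.38 without IL-1ß replicate 3. That of ACS from IL-1ß was 1.16 (adjusted p = 0.420) and turned to -0.25 without this library. No direction is therefore given for TFRC.

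SLC11A2 (ENSECAG00000020056; chromosome 6, 69306696 to 69337393), which carries iron out of endosomes, had its lowest levels in the same libraries as TFRC, at 62.8 CPM in IL-1ß replicate 3 and 80.3 CPM in PRP lysate replicate 1. The other 13 libraries lay between 103 and 192 CPM, and no comparison passed the test. IREB2, the iron regulatory protein that stabilizes the TFRC transcript, was also lowest there, at 18.8 and 36.7 CPM against 47.7 to 77.9 CPM elsewhere. This was not particular to IREB2. NFE2L2 (108 and 128 CPM) and BACH1 (1.73 and 6.45 CPM) were lowest in these libraries too, while 5 of the 10 genes were highest in IL-1ß replicate 3. The part of these libraries' cell content or RNA quality in their low TFRC and SLC11A2 was not tested.

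**Figure D4:**
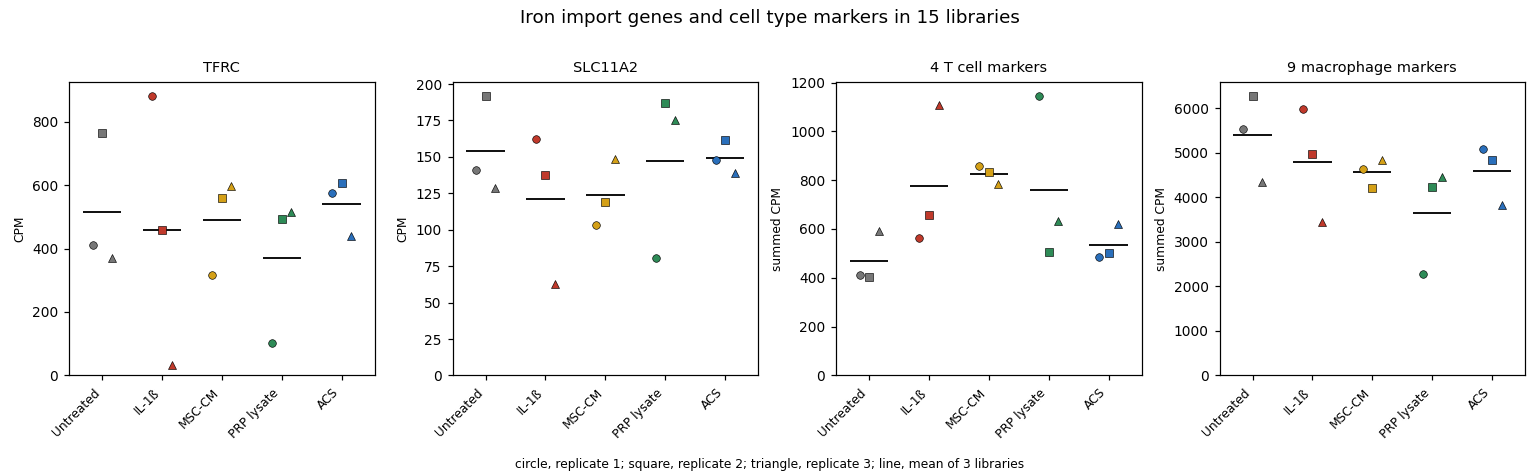
Levels of TFRC and SLC11A2 in CPM, and summed CPM of 4 T cell markers and of 9 macrophage markers (vertical axes, from 0), in the 15 libraries of the 5 conditions (horizontal axis). Points are libraries and lines are means of 3. IL-1ß replicate 3 and PRP lysate replicate 1 have the lowest TFRC (33.2 and 102 CPM) and the highest T cell sums (1107 and 1146 CPM).

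SLC11A1 (ENSECAG00000015807; chromosome 6, 7818027 to 7827293), the phagosomal metal pump of myeloid cells that limits the growth of microbes, was the only one of the 9 genes tested whose IL-1ß and untreated libraries did not overlap, as in 16.2% of all genes tested. It was at 20.1, 22.1 and 10.9 CPM in the untreated libraries and at 36.1, 34.4 and 31.2 CPM with IL-1ß. With MSC-CM it was at 27.5, 22.4 and 28.9 CPM, with PRP lysate at 15.7, 19.9 and 22.6 CPM and with ACS at 27.8, 16.4 and 7.08 CPM. All libraries with an OT lay below all IL-1ß libraries. The log2 fold change of IL-1ß against the untreated group was 0.95 (95% confidence interval 0.15 to 1.76) and did not pass (adjusted p = 0.301), nor did that of ACS (-1.13, adjusted p = 0.125) or PRP lysate (-0.79, adjusted p = 0.297) against IL-1ß. The ACS value passed without ACS replicate 1 (-1.56, adjusted p = 0.0422) and was nearer to 0 without ACS replicate 3, the lowest library (-0.64, adjusted p = 0.391).

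SLC40A1 (ENSECAG00000021609; chromosome 18, 66191587 to 66212715), the only known iron exporter of vertebrate cells, was close to the limit of detection. It had no read in IL-1ß replicate 3 and in PRP lysate replicate 1, which allows a level of up to 0.104 and 0.0806 CPM (3 reads of the library, counting error only). In the other 13 libraries it was at 0.251 to 2.15 CPM. On the recovered reads, edgeR and DESeq2 gave it no adjusted p under 0.70 in any comparison. Libraries of one group differed widely, with 42, 52 and 0 reads with IL-1ß and 53, 18 and 92 reads with MSC-CM, so that no difference between groups was detected beyond this spread.

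Over the 9 genes tested, the log2 fold change against IL-1ß was below 0 for 6 genes with PRP lysate, 7 with ACS and 7 with MSC-CM. Of all genes tested, 38.8%, 39.5% and 28.8% were below 0 in these comparisons. PRP lysate against IL-1ß called FTH1 and BLVRB as lower at an adjusted p of at most 0.05, beside 3.00% of all genes tested, and ACS against IL-1ß called SLC48A1, beside 1.68%. The libraries of both groups were below all IL-1ß libraries for 6 of the 9 genes with PRP lysate (6.47% of all genes tested) and for 7 of the 9 with ACS (11.2%). At a fold of at least 2 as well, limma called none of the 9 in any of the 10 comparisons, beside 3.09% of all genes for PRP lysate against IL-1ß, where edgeR and DESeq2 called FTH1. The 9 genes had a median log2 fold change of -0.56 (PRP lysate), -0.50 (ACS) and -0.21 (MSC-CM). That of all genes tested was 0.11, 0.13 and 0.16. Size factors of the median ratio (RLE) brought the latter to 0.02, 0.01 and -0.002. These comparisons share the IL-1ß libraries, so that they are not independent. Of the 9 macrophage markers, 2 were called lower with PRP lysate and 1 with ACS against IL-1ß, and none was called higher. AIF1 fell in both (log2 fold change -1.37, adjusted p = 0.00176, and -1.10, adjusted p = 0.0133) and MARCO with PRP lysate (-1.43, adjusted p = 0.0360). The log2 difference of CD68 was 0.01 (PRP lysate) and 0.00 (ACS), and the median over the 9 markers was -0.42 and -0.20. CSF3R, the one neutrophil marker tested, rose with ACS (0.93, adjusted p = 0.0143) and was at 268 to 759 CPM over all libraries. The other listed neutrophil genes in the table, S100A12, MPO and ELANE, reached at most 2.88, 3.81 and 0.383 CPM in any library. Summed over the 9 macrophage markers, the level was 2274 to 4459 CPM with PRP lysate, 3819 to 5083 CPM with ACS and 3434 to 5977 CPM with IL-1ß. The part of macrophage content in the lower levels was not tested.

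With the other pairs of conditions, calls were few. PRP lysate called FTH1 and BLVRB as lower against MSC-CM (2.78% of all genes tested) and against the untreated group (1.88%). Among the macrophage markers, 1 was called lower in the first of these comparisons and 2 in the second, and none was higher. Of the 2 platelet markers tested, 1 was called higher in each. The part of cell content in these calls was not tested. IL-1ß against the untreated group called none of the 9 in limma, beside 0.387% of all genes in either direction, with SLC11A1 alone at an unadjusted p under 0.05 (13.0% of all genes). MSC-CM against IL-1ß called none, beside 0 genes in all, with BLVRA and FTL at an unadjusted p under 0.05 (5.60%). None was called for ACS against MSC-CM (1.92% of all genes called), with 3 at an unadjusted p under 0.05 (13.5%), or for PRP lysate against ACS (0.103%), with 2 (5.19%). MSC-CM against the untreated group called none (1.92%), with 2 at an unadjusted p under 0.05 (15.7%), and ACS against the untreated group called none (0.473%), with 6 (7.65%). In these 6 comparisons edgeR and DESeq2 called none of the 9 either.

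Around these 10 genes, 69 others of heme and iron metabolism had been listed with earlier results of these data known, of which 57 were in the table and 48 were tested. With PRP lysate against IL-1ß, 1 of the 48 was higher and 5 were lower at an adjusted p of at most 0.05, and with ACS against IL-1ß, 2 were higher and 3 were lower, beside 4.94% and 3.45% of all genes in either direction. The median log2 fold change of the 48 was -0.05 and -0.19. None passed with IL-1ß against the untreated group or with MSC-CM against IL-1ß in limma.

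ACO1, which encodes iron regulatory protein 1, the cytosolic aconitase that binds ferritin and TFRC transcripts when iron is scarce, was at 316, 293 and 243 CPM with IL-1ß, at 94.5, 130 and 115 CPM with PRP lysate and at 178, 153 and 156 CPM with ACS. The untreated and MSC-CM libraries lay between 216 and 316 CPM. Neither OT group overlapped any other group. ACO1 fell with PRP lysate (log2 fold change -1.32, adjusted p = 0.000639) and with ACS (-0.80, adjusted p = 0.0242) against IL-1ß. The first call was kept without any single library and lost in a fit of the 2 groups alone (adjusted p = 0.0607), and the second was lost without IL-1ß replicate 2 (adjusted p = 0.0793) or ACS replicate 1, 2 or 3 (adjusted p = 0.0533, 0.114 and 0.101), passing in 9 of 14 alternatives. IREB2 and FBXL5, the other listed genes of iron sensing, did not pass in either.

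STEAP3, the endosomal reductase that prepares iron from transferrin for transport, was at 54.8, 40.0 and 21.2 CPM with IL-1ß, at 4.46, 11.8 and 14.5 CPM with PRP lysate and at 20.5, 17.8 and 20.6 CPM with ACS. It fell with PRP lysate against IL-1ß (log2 fold change -1.85, adjusted p = 0.0103), against MSC-CM (-2.16, adjusted p = 0.00447) and against the untreated group (-1.90, adjusted p = 0.0154). The call against IL-1ß passed in 13 of 15 alternatives and was lost in a fit of these 2 groups alone (adjusted p = 0.290) and with the replicate block (adjusted p = 0.0872). That against the untreated group was lost without untreated replicate 1 (adjusted p = 0.0904) or untreated replicate 2 (adjusted p = 0.0741) and passed in 11 of 15 alternatives. With the replicate number as a block, the call against MSC-CM was lost over 4 groups (adjusted p = 0.0537) and kept over these 6 libraries alone (adjusted p = 0.00357). The ACS value of -0.85 against IL-1ß did not pass (adjusted p = 0.225). It passed in 2 of 14 alternatives and was -0.55 without IL-1ß replicate 1 (adjusted p = 0.269).

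Of the 5 heme transport and binding genes tested, 2 fell with PRP lysate against IL-1ß. HEBP1, a heme-binding protein, went from 86.1, 134 and 163 CPM to 69.8, 55.9 and 56.1 CPM (log2 fold change -1.02, adjusted p = 0.0146). ABCG2, an exporter of porphyrins and heme, went from 12.6, 13.3 and 10.9 CPM to 2.71, 7.17 and 5.10 CPM (-1.21, adjusted p = 0.0193). In both, no library of the groups compared overlapped. The HEBP1 call was lost without IL-1ß replicate 2 (adjusted p = 0.0624) or PRP lysate replicate 2 or 3 (adjusted p = 0.0589 and 0.0629), and that of ABCG2 without IL-1ß replicate 2 (adjusted p = 0.0733) or PRP lysate replicate 3 (adjusted p = 0.0524). Over all alternatives the first passed in 10 of 15 and the second in 11 of 15. HEBP1 also fell with ACS against IL-1ß (-0.92, adjusted p = 0.0343), a call kept only without IL-1ß replicate 1 among single libraries left out (adjusted p up to 0.138) and in 6 of 14 alternatives in all.

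ALAS1, the rate-limiting enzyme of heme synthesis outside the red cell lineage, was the only one of 7 synthesis genes to pass. It was at 338, 330 and 257 CPM with IL-1ß, at 292, 286 and 291 CPM with MSC-CM and at 510, 499 and 581 CPM with ACS, while the untreated and PRP lysate libraries lay between 340 and 439 CPM. The ACS libraries were the highest of all. ALAS1 rose with ACS against IL-1ß (log2 fold change 0.79, adjusted p = 0.00575) and against MSC-CM (0.87, adjusted p = 0.00384), and both calls were kept without any single library, the first being lost in a fit of the 2 groups alone (adjusted p = 0.122).

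Among the listed regulators of HMOX1, the small MAF protein MAFF was at 252, 283 and 242 CPM with IL-1ß, at 718, 475 and 386 CPM with PRP lysate and at 518, 520 and 680 CPM with ACS. The untreated libraries, at 330, 348 and 590 CPM, overlapped the PRP lysate and ACS groups, and those with MSC-CM were at 284, 386 and 260 CPM. MAFF rose with PRP lysate and with ACS against IL-1ß (log2 fold change 0.98, adjusted p = 0.0452, and 1.13, adjusted p = 0.0296), and neither passed against the untreated group (0.32, adjusted p = 0.738, and 0.48, adjusted p = 0.742). The first call was lost without PRP lysate replicate 1 (0.73, adjusted p = 0.104) or 2 (adjusted p = 0.0964) or any IL-1ß library (adjusted p from 0.0767 to 0.0884), and it passed in 3 of 15 alternatives, DESeq2 (adjusted p = 0.0213) among them and edgeR (adjusted p = 0.0679) not. The second was lost without any library other than IL-1ß replicate 1 (adjusted p from 0.0648 to 0.138), passing in 6 of 14 alternatives. BACH1, the heme-sensitive repressor of HMOX1 and ferritin genes, had its lowest levels in the libraries that stood apart, 1.73 CPM (IL-1ß replicate 3) and 6.45 CPM (PRP lysate replicate 1), and reached 40.4 CPM in IL-1ß replicate 1. It did not pass in any comparison, and neither did NFE2L2, which activates the same genes.

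CD163, the scavenger receptor for hemoglobin bound to haptoglobin, fell from 685, 638 and 365 CPM with IL-1ß to 7.34, 13.3 and 13.4 CPM with PRP lysate (log2 fold change -5.50, adjusted p = 9.04e-06) and to 92.0, 58.6 and 43.2 CPM with ACS (-3.12, adjusted p = 0.00149). The untreated libraries were at 302, 281 and 147 CPM, and against them CD163 was called lower with PRP lysate but not with ACS. Of the 5 genes of other iron transport, the mitochondrial importer mitoferrin 1 (SLC25A37) rose with MSC-CM against the untreated group (from 9.40, 10.3 and 11.0 CPM to 18.5, 30.3 and 22.8 CPM, log2 fold change 1.12, adjusted p = 0.0326), and this call was lost without any of the 6 libraries (adjusted p from 0.0577 to 0.159) and passed in 7 of 15 alternatives. In the same comparison the 4 T cell markers had a median log2 fold change of 0.83, with 1 called higher. The part of cell content in this rise was not tested.

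**Figure D5:**
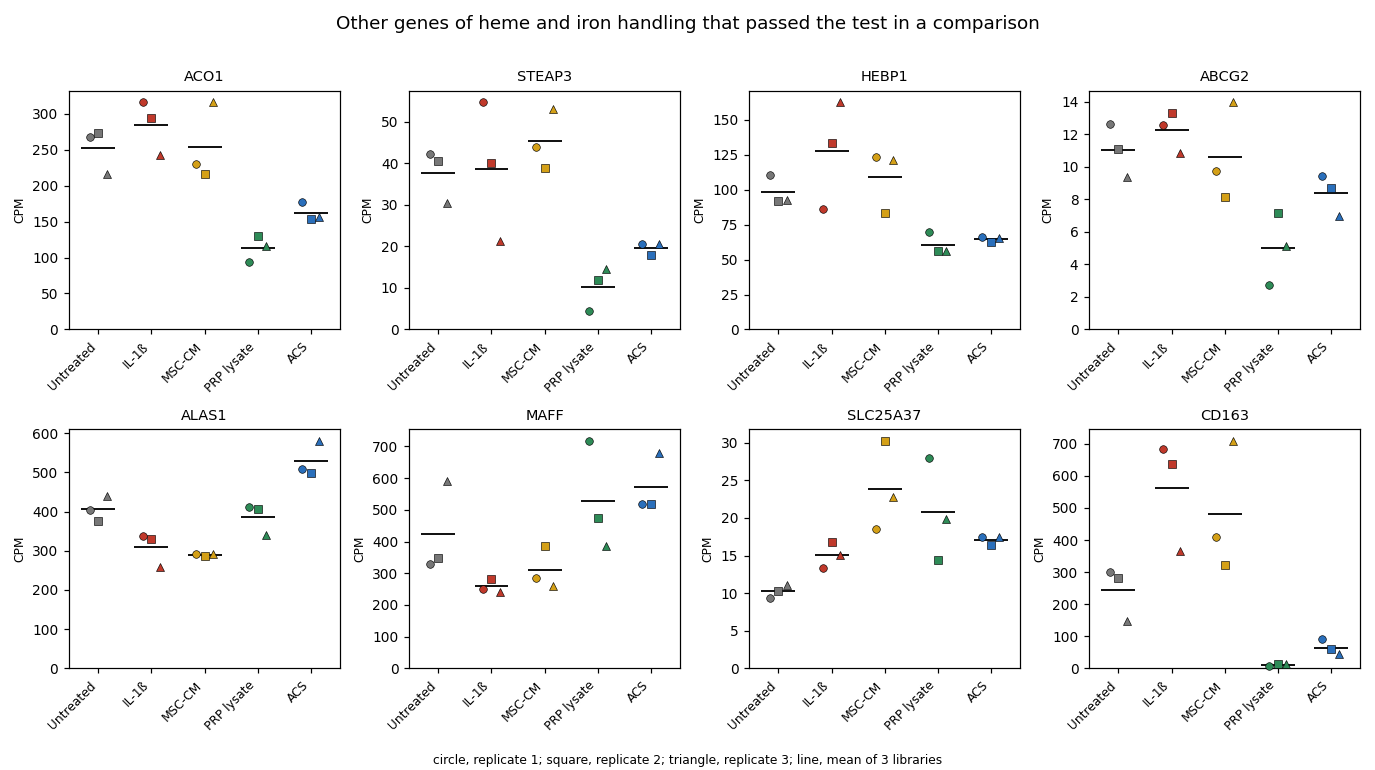
Level in CPM (vertical axis, from 0) of 8 further genes of heme and iron metabolism that passed the test in at least 1 comparison, in the 15 libraries of the 5 conditions (horizontal axis). Points are libraries and lines are means of 3. ACO1 and STEAP3 are lowest with PRP lysate, ALAS1 is highest with ACS (499 to 581 CPM), and CD163 is at 7.34 to 13.4 CPM with PRP lysate.

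Likeness of pattern was measured for the 3 genes with the widest range of group means, as the root mean square difference of log2(CPM + 1) over the 15 libraries after centring each gene on its mean. The genes nearest to FTH1 were ENSECAG00000003925 (0.145), the lysosomal acid phosphatase ACP2 (0.147), the lysosomal protease CTSD (0.147), LMO4 (0.154) and BLVRB (0.156), where the spread of FTH1 about its own mean was 0.385. Nearest to TFRC, with a spread of its own of 1.16, were MTMR6 (0.238), MFAP3 (0.240), GNB4 (0.255), RNF111 (0.259) and POLK (0.263). The wide range of TFRC came largely through IL-1ß replicate 3 (33.2 CPM), without which its ACS against IL-1ß value turned to -0.25. SLC11A1, with a spread of 0.578, had no gene as near, the closest being CAPN3 (0.323) and BMP6 (0.384).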

How the data were processed

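The deposited values are CPM per gene. The authors worked in Partek Flow, where reads were trimmed at a Phred score of 20, STAR 2.7.3 aligned them to the EquCab3.0 genome, and HTseq counted them over Ensembl release 107. The strand setting of the counting is not given in the sources used here. Each of the 15 columns carries its sample's description. The members and lists were chosen with earlier results of these data known.

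Values were tested as log2(CPM + 1) in limma 3.58.1 with an intensity trend, over genes averaging 1 CPM or more, in 1 fit of 15 libraries and 5 conditions, with Benjamini-Hochberg adjustment within each comparison. Fold changes are on this scale, which understates those of low genes. Called means an adjusted p of at most 0.05, and the 2-fold threshold is named where it was added. Of the 10 comparisons, 7 were planned and 3 against the untreated group were added after the data were seen. All 10 genes are named by symbol, other pathway genes where they passed the test, and IREB2, FBXL5, BACH1 and NFE2L2, chosen after their values were seen.

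As 99.5% of the deposited values were within 0.05 of a whole number of reads, reads were recovered and tested with edgeR 4.0.16 (quasi-likelihood) and DESeq2 1.42.0 as alternatives. Other alternatives were a pseudocount of 0.1, no filter, RLE and TMM factors, only the 2 groups compared, a replicate block and leaving out each library. Deviations from group means of same-numbered MSC-CM and PRP lysate libraries correlated at 0.635, 0.255 and 0.419, so the number was taken to pair these groups, from this check and not from the labels. MSC-CM replicate 2 was nearer to PRP lysate replicate 3 (0.388) and MSC-CM replicate 3 to PRP lysate replicate 2 (0.470). The check therefore does not settle a pairing by number. Every other pair of groups had a same-numbered correlation below 0 (lowest -0.775). The code was tested on simulated data. R 4.3.3 and Python 3.11.15 were used.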

Additional observations from a re-analysis of the deposited data

How the results depend on the processing

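For 65 fold changes of single genes (those named, at an unadjusted p under 0.05 or called), 801 values kept their direction and their side of the threshold under an alternative, 120 were no longer past it, 21 came past it and 11 turned. Of these, 4 are the TFRC values without IL-1ß replicate 3, alone or together with PRP lysate replicate 1, at 0.38 for IL-1ß against the untreated group and -0.25 for ACS against IL-1ß; leaving out single libraries gave -1.96 to 0.38 and -0.25 to 2.10. HMOX1 with PRP lysate against IL-1ß turned with RLE (-0.0451), TMM (-0.0304), edgeR (-0.0719) and DESeq2 (-0.0936), and libraries left out gave -0.0918 to 0.2992. SLC48A1 with PRP lysate against ACS turned without ACS replicate 3, in a range of -0.0411 to 0.2437. Over all 90 fold changes of the 9 genes in 10 comparisons, 30 turned under at least 1 alternative, 9 of them of TFRC and the other 21 with a log2 fold change of at most 0.41 in size.

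Of the 9 genes tested, those past both adjusted p and fold numbered 0 in each comparison. For PRP lysate against IL-1ß they numbered 1 with a pseudocount of 0.1, RLE, TMM, edgeR or DESeq2, 2 with no fold threshold and 0 to 1 with libraries left out. For ACS against IL-1ß they numbered 1 with no fold threshold and 0 to 1 with libraries left out. They numbered 2 with no fold threshold for PRP lysate against MSC-CM and against the untreated group, the latter 0 to 1 with libraries left out.

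Past adjusted p alone, PRP lysate against IL-1ß had 2, but 3 in DESeq2, 1 with RLE, 0 in a fit of only the 2 groups compared and 1 to 2 with libraries left out. ACS against IL-1ß had 1, but 0 in edgeR, 3 in DESeq2, 0 with only 2 groups and 0 to 4 with libraries left out. PRP lysate against MSC-CM had 2, but 1 with no filter, RLE, TMM, edgeR or DESeq2 and 0 with only 2 groups. It had 1 to 2 with single libraries left out and 3 without IL-1ß replicate 3 and PRP lysate replicate 1. PRP lysate against the untreated group had 2, but 1 with RLE, TMM or edgeR, 0 with only 2 groups and 0 to 2 with libraries left out. ACS against MSC-CM had 0, but 1 with only 2 groups and 2 without IL-1ß replicate 3 and PRP lysate replicate 1. Without this pair MSC-CM against the untreated group had 2 and ACS against it had 4, the latter 3 with only 2 groups. Apart from the libraries left out, the cause was not tested.

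With the replicate number as a block in 4 groups, genes past adjusted p alone numbered 1 for PRP lysate against IL-1ß, 0 against MSC-CM and 0 against the untreated group. With the block in the MSC-CM and PRP lysate libraries alone, an alternative added after the data were seen, they numbered 2. Outside these groups libraries share only a number, and within them the pairing by number is not settled. ACS libraries carry no number in the labels and were left out. Of the 10 genes SLC40A1 had the fewest reads, 0 to 92 in a library.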
